A study of Mus musculus with 27 samples.

Results

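Macrophages of the type found in lung airspaces were compared with monocytes from the same tissue, both from wild-type (WT) C57BL/6 mice without tumours. The macrophages were 2 libraries of cells sorted by flow cytometry as CD11c+CD11b- (WT macrophages 1 and 2), and the monocytes were 2 libraries sorted as CD11b+Ly6C+ (WT monocytes 3 and 4). These are 4 of the 27 RNA-seq libraries of the series, and they are defined by their cell type labels. Other WT libraries, of neutrophils, epithelial cells and total lung cells, served only as a level to set beside marker genes. A comparable pair came from lungs of C57BL/6 mice 20 to 25 days after tail vein injection of HKP1 cells, a mouse lung adenocarcinoma line. There the macrophages were sorted by another gate, CD11c+CD11b+ (tumour macrophages 1, 2 and 3), and the monocytes again as CD11b+Ly6C+ (tumour monocytes 4 and 5). No label ties a library to an animal, so every p-value below measures spread between these libraries, which may be technical.

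Alveolar macrophages live on the airspace surface of the lung, where they take up surfactant lipid, dust and microbes. They settle around birth, renew themselves by division, and depend on the growth factor GM-CSF and on TGF-beta, which keep the lipid-sensing transcription factor PPAR-gamma expressed. Ly6C+ monocytes are made in bone marrow, circulate in blood, enter tissue through the chemokine receptor CCR2, and can turn into macrophages there.

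Values are FPKM, levels scaled to gene length and to the size of the library. Differences are WT macrophages minus WT monocytes on log2(FPKM + 1), a scale that understates the change of weakly expressed genes. Of the 16024 genes in the table, 10474 reached 1 FPKM in at least 2 of the 4 libraries and were tested with limma, with Benjamini-Hochberg adjustment over all of them and a threshold of 0.05. At that threshold 1829 genes (17.5%) were higher in WT macrophages and 2786 genes (26.6%) were lower, 44.1% together. The counts of each gene list below are to be read against these shares, and a count near them does not set a list apart. The median difference of all tested genes was -0.10, and 39.6% of the called genes were higher. That split depended on scaling: after quantile normalisation 2282 genes were higher and 2276 lower (median shifted by 0.14), and after upper-quartile scaling 2344 were higher and 2250 lower (median shifted by 0.16). Without WT macrophage 1 the counts were 618 higher and 1290 lower, and without WT macrophage 2 they were 595 higher and 1255 lower. Differences of 4 or more on the log2 scale were found for 56 genes higher and 50 genes lower in WT macrophages.

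**Figure D1:**
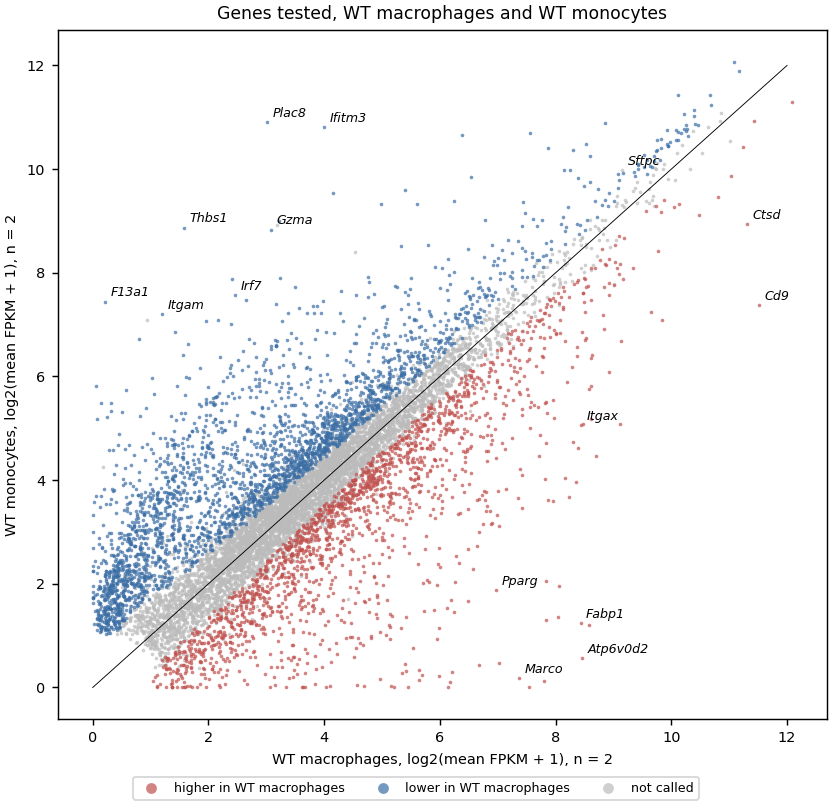
Each point is a gene, with the mean level in WT macrophages on the x axis and in WT monocytes on the y axis, both as log2(FPKM + 1). Coloured points are the 1829 genes called higher and the 2786 called lower in WT macrophages, and the line marks equal levels.

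The replicate libraries resembled each other more than they resembled the other cell type. Pearson's r over the tested genes was 0.990 between the WT macrophage libraries, 0.964 between the WT monocyte libraries, and 0.793 to 0.795 between the groups. The 4 libraries listed 9679 to 10238 genes at 1 FPKM or more. Between 2616 and 3391 genes were listed at exactly 0 in a library. An exact 0 in this table can be a failed estimate: the surfactant gene Sftpc is listed at 0 in all WT epithelial libraries and the granule gene S100a9 at 0 in all WT neutrophil libraries. Genes listed at 0 in both libraries of a group are therefore given as levels, without a fold change. They stay in the counts of called genes and, unless stated, in the list medians.

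The sorting markers followed their labels. Itgam, which encodes CD11b, had 1.20 and 1.40 FPKM in WT macrophages, against 145 and 148 FPKM in WT monocytes (log2 difference -6.01 ± 0.14 SE, limma adjusted p = 3.92e-05). Itgax, which encodes CD11c, had 344 and 349 FPKM in WT macrophages, against 24.2 and 40.4 FPKM in WT monocytes (log2 difference 3.43 ± 0.24 SE, limma adjusted p = 0.000392). Both genes encode antigens of the sort, so their differences check the labels and are no finding, and Ly6C genes were not analysed here. Both are nevertheless counted in the complement and adhesion lists below. Ptprc, the pan-leukocyte antigen CD45, had 169.8 and 171 FPKM in WT macrophages, against 382 and 331 FPKM in WT monocytes, so all 4 libraries carried leukocyte RNA.

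Markers of alveolar macrophages were higher in the CD11c+CD11b- cells. All 17 of the alveolar macrophage markers tested, the sorting marker Itgax included, were called higher in WT macrophages. Their median log2 difference was 5.12, against -0.10 over all tested genes. It was 4.76 without the lipid droplet gene Cidec, which is listed at 0 in both WT monocyte libraries. Marco, a scavenger receptor for particles and bacteria, had 155 and 174 FPKM in WT macrophages, against 0.0479 and 0.222 FPKM in WT monocytes (log2 difference 7.19 ± 0.16 SE, limma adjusted p = 3.92e-05). Car4, a membrane carbonic anhydrase, had 293 and 357 FPKM in WT macrophages, against 16.7 and 12.4 FPKM in WT monocytes (log2 difference 4.40 ± 0.18 SE, limma adjusted p = 0.000129). For both genes the lower macrophage library was far above the higher monocyte library. Levels of Pparg, the PPAR-gamma gene, were 122 and 127 FPKM in WT macrophages and 2.01 and 3.31 FPKM in WT monocytes (log2 difference 5.12 ± 0.20 SE, limma adjusted p = 0.000111). Mrc1, the mannose receptor CD206, differed by 4.32 ± 0.27 (SE), and again the groups did not overlap. The summed level of the list was 4207 and 4477 FPKM in WT macrophages, against 226 and 224 FPKM in WT monocytes. Without either WT macrophage library 11 members were called, all of the 11 that then reached 1 FPKM in at least 2 libraries.

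Among all tested genes the largest difference was that of Atp6v0d2, a subunit of the vacuolar proton pump, with 353 and 349 FPKM in WT macrophages, against 0.347 and 0.617 FPKM in WT monocytes (log2 difference 7.90 ± 0.15 SE, limma adjusted p = 3.92e-05). Fabp1, a fatty acid binding protein best known from liver, had 357 and 332 FPKM in WT macrophages, against 1.58 and 1.14 FPKM in WT monocytes (log2 difference 7.20 ± 0.15 SE, limma adjusted p = 3.92e-05). Ctsk, a collagen-cleaving cathepsin best known from osteoclasts, had 250.1 and 276 FPKM in WT macrophages, against 0.713 and 2.45 FPKM in WT monocytes (log2 difference 6.76 ± 0.33 SE, limma adjusted p = 0.000173). These 3 genes exceeded 200 FPKM in both macrophage libraries and stayed under 3 FPKM in both monocyte libraries. Transcripts of Fpr1, a receptor for formylated bacterial peptides, stood at 127 and 131 FPKM in WT macrophages and 0.204 and 0.589 FPKM in WT monocytes. F7, the gene for coagulation factor VII, was at 218 and 239 FPKM in WT macrophages and 1.53 and 1.41 FPKM in WT monocytes. For Ltc4s, which makes leukotriene C4, the levels were 249 and 282 FPKM in WT macrophages and 1.44 and 4.31 FPKM in WT monocytes. The differences of these further 3 genes were 6.55 ± 0.19, 6.53 ± 0.13 and 6.21 ± 0.36 (SE). The remaining genes among the 15 with the largest increases were Marco, Krt79, Krt19, the neuropeptide gene Gal, the coronin Coro6, the GMP reductase Gmpr, the heme-binding Hebp1, the endolysosomal channel gene Mcoln3 and the transporter gene Mfsd7c, with log2 differences of 5.51 to 7.66. Cidec, a lipid droplet gene, had 171 and 199 FPKM in WT macrophages and is listed at 0 in both WT monocyte libraries. It was 1 of 10 genes listed at 0 in both monocyte libraries and at a mean of 5 FPKM or more in WT macrophages.

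**Figure D2:**
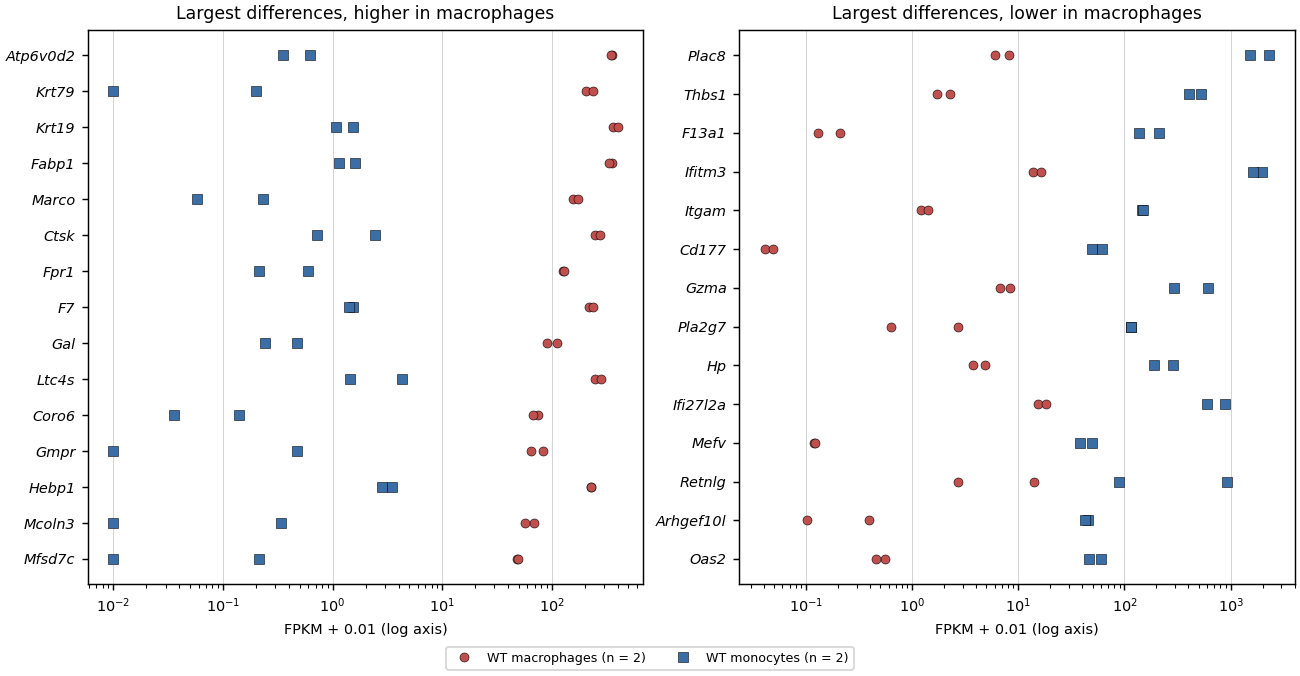
Levels in each library, as FPKM on a log axis after adding 0.01, of the 15 genes with the largest increase (left panel) and 14 of the 15 with the largest decrease (right panel) in WT macrophages relative to WT monocytes. The points of the groups are separate for every gene shown, as the choice of these genes required. The monocyte points of Retnlg lie far apart, at 88.7 and 931 FPKM.

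Keratins were among the genes the macrophages expressed at high level. Krt19, a keratin of simple epithelia, had 363 and 402 FPKM in WT macrophages, against 1.53 and 1.07 FPKM in WT monocytes (log2 difference 7.39 ± 0.16 SE, limma adjusted p = 3.92e-05). Krt79, a keratin of skin appendages, had 205 and 237 FPKM in WT macrophages, against 0 and 0.192 FPKM in WT monocytes (log2 difference 7.66 ± 0.17 SE, limma adjusted p = 3.92e-05). Epcam, an adhesion molecule of epithelial cells, had 47.7 and 43.0 FPKM in WT macrophages, against 1.20 and 0.195 FPKM in WT monocytes (log2 difference 4.84 ± 0.31 SE, limma adjusted p = 0.000318). WT epithelial libraries averaged 60.5 ± 16.9 FPKM of Krt19 and 87.1 ± 8.70 FPKM of Epcam (SD, n = 3). Krt19 was thus higher in both macrophage libraries than in the epithelial mean, while Epcam was lower. Of 10 tested keratin and epithelial adhesion genes 5 were higher and 2 lower (median 1.20), with 1 lower without either macrophage library.

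Monocyte genes made up the other end of the comparison. Of 13 tested classical monocyte markers 9, the sorting marker Itgam included, were lower in WT macrophages (median -4.62). The 1 that was higher was the glutathione transferase Mgst1. Plac8, a small cysteine-rich protein of blood leukocytes, had 6.03 and 8.19 FPKM in WT macrophages, against 2315 and 1512 FPKM in WT monocytes (log2 difference -7.86 ± 0.24 SE, limma adjusted p = 8.48e-05). F13a1, the A subunit of coagulation factor XIII, had 0.199 and 0.121 FPKM in WT macrophages, against 211 and 136 FPKM in WT monocytes (log2 difference -7.20 ± 0.24 SE, limma adjusted p = 8.48e-05). Thbs1, thrombospondin 1, had 1.69 and 2.26 FPKM in WT macrophages, against 524 and 408 FPKM in WT monocytes (log2 difference -7.29 ± 0.18 SE, limma adjusted p = 4.43e-05). In all 3 genes the macrophage libraries stayed under 9 FPKM and the monocyte libraries above 100 FPKM. For Ccr2, the receptor that draws monocytes into tissue, the levels were 25.8 and 12.3 FPKM in WT macrophages and 162 and 103 FPKM in WT monocytes (log2 difference -2.79 ± 0.38 SE, limma adjusted p = 0.00318). Haptoglobin, encoded by Hp, differed by -5.46 ± 0.23 (SE). Markers of the non-classical, patrolling monocyte were lower for 10 of 13 tested (median -1.93). Cx3cr1, the fractalkine receptor, had 0.212 and 0.286 FPKM in WT macrophages, against 44.9 and 34.0 FPKM in WT monocytes (log2 difference -5.00 ± 0.20 SE, limma adjusted p = 0.000115), and Ace, angiotensin converting enzyme, differed by -3.36 ± 0.15 (SE). Without WT monocyte 3 the classical list had 6 lower, and without either macrophage library Mgst1 was not called.

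Genes associated with interstitial or monocyte-derived macrophages were lower in the CD11c+CD11b- cells for 15 of 18 tested (median -2.95), and 1, Trem2, was higher. With either monocyte library left out, 15 of the 18 reached 1 FPKM in at least 2 libraries. The rest depended on monocyte levels to enter the test, which favours a lower call. C1qa, a chain of the complement starter C1q, had 2.41 and 8.50 FPKM in WT macrophages, against 36.3 and 109 FPKM in WT monocytes (log2 difference -3.50 ± 0.66 SE, limma adjusted p = 0.0097). Apoe, a lipid carrier, had 90.8 and 92.4 FPKM in WT macrophages, against 771 and 1065 FPKM in WT monocytes (log2 difference -3.29 ± 0.17 SE, limma adjusted p = 0.000191). Both genes were higher in both monocyte libraries than in either macrophage library. Trem2, a lipid-sensing receptor, went the other way, at 43.4 and 41.3 FPKM in WT macrophages and 20.8 and 23.7 FPKM in WT monocytes (log2 difference 0.90 ± 0.13 SE, limma adjusted p = 0.00422), and was not called without either macrophage library (adjusted p = 0.0662 and 0.0547).

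Markers of other cell types were not evenly present. All 12 tested NK cell and cytotoxic markers were lower in WT macrophages (median -3.94), and their summed level was 83.6 and 86.6 FPKM in WT macrophages, against 1035 and 2441 FPKM in WT monocytes, with 1513 to 2032 FPKM in WT total lung. With either monocyte library left out, 9 of the 12 markers reached 1 FPKM in at least 2 libraries. The rest entered the test only through their monocyte levels. Gzma, granzyme A, had 6.69 and 8.25 FPKM in WT macrophages, against 295 and 614 FPKM in WT monocytes (log2 difference -5.66 ± 0.35 SE, limma adjusted p = 0.00029). Of 19 tested endothelial markers 17 were lower, Car4 being the 1 that was higher, and the sums were 429 and 482 FPKM in WT macrophages, against 1439 and 907 FPKM in WT monocytes. Of 15 tested fibroblast markers 14 were lower, with 181 and 229 FPKM in WT macrophages, against 1023 and 979 FPKM in WT monocytes, and 9 were lower without WT macrophage 1. Of 11 tested B cell markers 10 were lower, with 67.3 and 76.0 FPKM in WT macrophages, against 208 and 297 FPKM in WT monocytes. Of 12 tested T cell markers 6 were lower, with 33.4 and 39.1 FPKM in WT macrophages, against 126 and 191 FPKM in WT monocytes, with 3 lower without WT macrophage 1 and 10 without WT monocyte 3. Basophil and mast cell markers summed to 7.56 and 6.65 FPKM in WT macrophages, where Ms4a2 is listed at 0, and to 61.7 and 38.1 FPKM in WT monocytes. Alveolar type I markers summed to 92.6 and 82.2 FPKM in WT macrophages and 584 and 382 FPKM in WT monocytes, with 5 of 10 tested lower and 1 higher, and 3 higher without WT monocyte 3. Platelet markers summed to 37.1 and 32.6 FPKM in WT macrophages and 23.7 and 33.4 FPKM in WT monocytes, and erythroid markers to 0.394 and 0.674 FPKM in WT macrophages and 8.70 and 0.914 FPKM in WT monocytes, with Slc4a1 listed at 0 in all 4 libraries. RNA of NK, endothelial, stromal and lymphoid genes thus moved with the monocyte label. The part of such cells in the genes called lower was not tested, and in sorted bulk cells fewer cells of a type and less RNA per cell cannot be told apart. With genes higher on average in WT neutrophils, epithelium or total lung than in both groups left out of the fit, 1264 genes were higher and 930 lower.

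The 2 monocyte libraries differed from each other in neutrophil and epithelial genes. Neutrophil markers summed to 88.9 and 62.0 FPKM in WT macrophages, where Elane is listed at 0, and to 294 and 3172 FPKM in WT monocytes 3 and 4. S100a8, a calcium-binding protein of neutrophils, had 25.9 and 18.4 FPKM in WT macrophages, against 10.9 and 666 FPKM in WT monocytes. Camp, the cathelicidin of neutrophil granules, had 1.57 and 0.249 FPKM in WT macrophages, against 0.144 and 272 FPKM in WT monocytes. For both genes WT monocyte 4 was the high library and the WT macrophage values lay between those of the monocyte libraries. Of 11 tested neutrophil markers 6 were lower in WT macrophages, and 4 without WT macrophage 2. Without WT monocyte 3 the count was 8 of 10 tested, and without WT monocyte 4 it was 6 of 9 tested, with 2 higher. Retnlg, a neutrophil and monocyte resistin-like gene, had 13.9 and 2.70 FPKM in WT macrophages, against 88.7 and 931 FPKM in WT monocytes (log2 difference -5.28 ± 1.19 SE, limma adjusted p = 0.0169), and was not called without WT macrophage 2 (adjusted p = 0.0695). Alveolar type II cell markers summed to 861 and 652 FPKM in WT macrophages, against 2469.5 and 524 FPKM in WT monocytes 3 and 4. Sftpc, a surfactant protein, had 649 and 486 FPKM in WT macrophages, against 1781 and 229 FPKM in WT monocytes (limma adjusted p = 0.886), so the monocyte values lay on either side of the macrophage values. Of 11 tested type II markers 1, Napsa, was lower. Without WT monocyte 3 the list had 6 higher and 1 lower, and without WT monocyte 4 it had 10 lower. Club and ciliated cell markers summed to 578 and 915 FPKM in WT macrophages and 281 and 611 FPKM in WT monocytes, with 1 of 10 tested higher and 1 lower. Without WT monocyte 3 that list had 0 higher and 3 lower, and without WT monocyte 4 it had 5 higher and 1 lower.

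**Figure D3:**
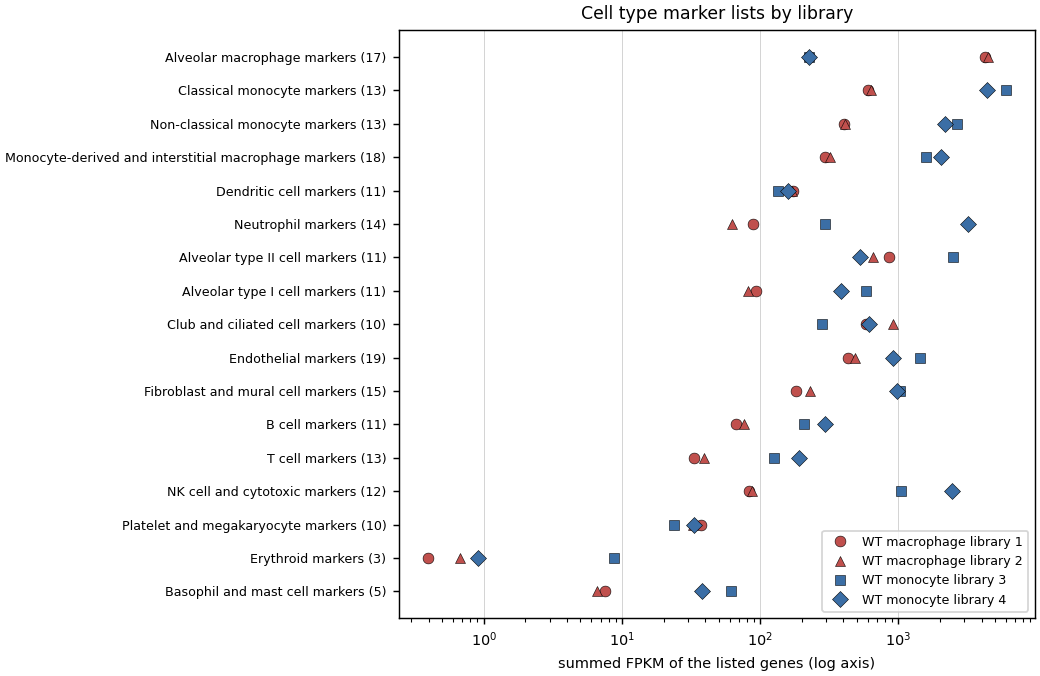
Summed level of 17 cell type marker lists in each library, in FPKM on a log axis, with WT macrophages 1 and 2 given before WT monocytes 3 and 4. The alveolar macrophage sum is 4207 and 4477 FPKM in WT macrophages and 226 and 224 FPKM in WT monocytes, and the neutrophil sum of WT monocyte 4 stands at 3172 FPKM.

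Transcription factors of the myeloid lineages divided the cells, with 9 of 32 tested higher and 16 lower (median -0.51). Pparg had the largest increase, followed by Bhlhe41, a basic helix-loop-helix repressor, at 44.8 and 39.0 FPKM in WT macrophages and 0.608 and 2.55 FPKM in WT monocytes (log2 difference 4.16 ± 0.38 SE, limma adjusted p = 0.00087). Tfec, a relative of MITF in myeloid cells, differed by 3.92 ± 0.16 (SE), and Egr2, a zinc finger factor, by 3.43 ± 0.36 (SE). For these genes the groups did not overlap. Cebpa, Runx1, Rxra, Nr1h3, which encodes the oxysterol receptor LXR-alpha, and Mitf were also higher, by 1.63 to 1.89. Irf7, a driver of interferon genes, had the largest decrease, with 4.82 and 4.16 FPKM in WT macrophages, against 198 and 178 FPKM in WT monocytes (log2 difference -5.11 ± 0.14 SE, limma adjusted p = 5.72e-05). Nr4a1, a nuclear receptor that patrolling monocytes need, differed by -3.13 ± 0.16 (SE). Klf2, Klf6, Maf, Irf4 and Irf5 were among the others that were lower.

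Growth factor receptors split by pathway member. Of 18 tested genes of GM-CSF, M-CSF and TGF-beta signalling 7 were higher and 7 lower (median -0.12, and 0.04 after upper-quartile scaling), with 4 lower without WT macrophage 1. Tgfbr1, a TGF-beta receptor kinase, had 66.6 and 59.9 FPKM in WT macrophages, against 13.8 and 10.5 FPKM in WT monocytes (log2 difference 2.30 ± 0.17 SE, limma adjusted p = 0.000468). Csf2ra, the GM-CSF receptor alpha chain, had 362 and 367 FPKM in WT macrophages, against 248 and 221 FPKM in WT monocytes (log2 difference 0.64 ± 0.11 SE, limma adjusted p = 0.00723), and was not called without either macrophage library (adjusted p = 0.0815 and 0.0896). Both macrophage libraries were above both monocyte libraries for these genes. Tgfbr2, Csf2rb2 and the STAT5-induced feedback gene Socs2 were also higher, by 1.25 to 1.62. Csf1r, the M-CSF receptor, was lower, at 60.9 and 68.8 FPKM in WT macrophages and 302 and 245 FPKM in WT monocytes (log2 difference -2.05 ± 0.15 SE, limma adjusted p = 0.000404). Csf3r, the receptor for the neutrophil growth factor G-CSF, was lower too. So were Smad3, Smad4, Smad7, Jak2 and Stat5b, the signal carriers of the list that were called lower.

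Among genes that carry and burn fatty acids more were higher than lower in WT macrophages. Of 21 tested fatty acid carrier and lipid droplet genes 13 were higher and 3 lower (median 1.34), with 7 higher and 1 lower without WT macrophage 2. Lpl, lipoprotein lipase, had 529 and 579.7 FPKM in WT macrophages, against 35.8 and 30.3 FPKM in WT monocytes (log2 difference 4.03 ± 0.13 SE, limma adjusted p = 8.48e-05). Fabp5, an epidermal-type fatty acid binding protein, had 248 and 248 FPKM in WT macrophages, against 58.4 and 32.7 FPKM in WT monocytes (log2 difference 2.48 ± 0.27 SE, limma adjusted p = 0.00149). Both were separate between groups, whereas Cd36, a fatty acid and scavenger receptor, had 129 and 119.8 FPKM in WT macrophages, against 184 and 133 FPKM in WT monocytes and was not called (limma adjusted p = 0.179). Without members listed at 0 in a group the median of the fatty acid carrier and lipid droplet list was 1.09. Of 25 tested genes of fatty acid oxidation and peroxisomes 19 were higher (median 1.17). Pdk4, a kinase that turns cells from glucose to fat, had 41.5 and 42.3 FPKM in WT macrophages, against 0.447 and 0.0304 FPKM in WT monocytes (log2 difference 5.13 ± 0.22 SE, limma adjusted p = 0.000132). The mitochondrial genes Hadha and Etfb had smaller increases, of 1.17 ± 0.12 and 1.73 ± 0.17 (SE). Cholesterol genes were divided, with 9 of 30 tested higher and 6 lower (median 0.30), and 14 higher without WT monocyte 3. Abcg1, which exports cholesterol from macrophages, was the most changed, at 308 and 291 FPKM in WT macrophages and 10.2 and 13.2 FPKM in WT monocytes (log2 difference 4.57 ± 0.15 SE, limma adjusted p = 8.5e-05).

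The promoter of Fabp1, 250 bases before to 50 after its start in RefSeq on build GRCm38.p6, is shown because this gene is a known target of PPAR family receptors. These receptors bind repeats of the word AGGTCA, and a match to that word on either strand is in capitals. At chr6:71199629-71199928, plus strand, it held 2 matches, both as the reverse complement.
Fabp1 promoter: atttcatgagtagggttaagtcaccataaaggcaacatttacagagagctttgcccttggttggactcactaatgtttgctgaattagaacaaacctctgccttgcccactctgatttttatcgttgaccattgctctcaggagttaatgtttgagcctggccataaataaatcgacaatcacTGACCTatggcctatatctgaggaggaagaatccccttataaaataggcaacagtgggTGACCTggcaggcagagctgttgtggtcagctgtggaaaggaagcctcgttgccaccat
At least 1 such word was found in 16.3% of the 32851 RefSeq promoters of this length, so a match describes the letters and is no evidence of binding. The windows of Marco, Krt79, Plac8 and F13a1 held neither AGGTCA nor GGAAGT, a word recognised by ETS factors such as PU.1, nor the interferon word described further on.

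Lysosomal genes were mostly higher. Of 34 tested lysosomal enzymes and membrane proteins 20 were higher and 4 lower (median 0.64). After Ctsk the largest increase was that of Pla2g15, a lysosomal phospholipase that degrades surfactant lipid, with 128 and 125 FPKM in WT macrophages, against 8.34 and 9.74 FPKM in WT monocytes (log2 difference 3.67 ± 0.13 SE, limma adjusted p = 0.000101). Ctsd, the aspartyl protease cathepsin D, had 2464 and 2586 FPKM in WT macrophages, against 517 and 462 FPKM in WT monocytes (log2 difference 2.37 ± 0.11 SE, limma adjusted p = 0.000161). Lipa, lysosomal acid lipase, differed by 2.08 ± 0.11 (SE), and in none of these genes did the groups overlap. Npc2, which moves cholesterol out of lysosomes, and Gla were among those that were lower, with 2 lysosomal genes lower without either macrophage library. Of 17 tested subunits of the vacuolar proton pump, which acidifies lysosomes, 15 were higher and 1, Atp6v0a2, was lower (median 0.72). Without either macrophage library 4 subunits were higher. Atp6v1c1 was higher by 1.60 ± 0.18 (SE).

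Counts of energy metabolism genes differed by pathway and depended on the libraries used. Of 33 tested subunits of oxidative phosphorylation 13 were higher (median 0.32), but the count was 1 without WT macrophage 1 and 2 without WT macrophage 2. Of 19 tested enzymes of the tricarboxylic acid cycle 5 were higher and 2 lower (median 0.23), with 1 higher and 0 lower without either macrophage library. Of 23 tested glycolysis genes 7 were higher and 11 lower (median -0.45), against 17.5% and 26.6% of all tested genes. After upper-quartile scaling 7 were higher and 8 lower. Without either macrophage library more glycolysis genes were higher than lower, so no direction is drawn for this list. Aldoc, an aldolase, had 25.5 and 27.4 FPKM in WT macrophages, against 1.75 and 1.73 FPKM in WT monocytes (log2 difference 3.32 ± 0.16 SE, limma adjusted p = 0.000167). Ldhb, a lactate dehydrogenase, had 1.14 and 1.20 FPKM in WT macrophages, against 16.0 and 8.98 FPKM in WT monocytes (log2 difference -2.59 ± 0.29 SE, limma adjusted p = 0.00164). Neither gene's groups overlapped. Gapdh differed by 1.11 ± 0.12 (SE). Antioxidant genes were divided, with 7 of 22 tested higher and 7 lower (median 0.10), and so were genes of iron and heme handling, with 5 of 17 tested higher and 7 lower (median -0.62). Without either macrophage library 3 genes were higher in each of these lists, and without WT macrophage 1 there were 4 lower in each, with 3 lower iron and heme genes without WT macrophage 2. Prdx1, a peroxiredoxin, had 455 and 442 FPKM in WT macrophages, against 159 and 129 FPKM in WT monocytes (log2 difference 1.64 ± 0.13 SE, limma adjusted p = 0.000644).

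Cell division genes were higher in WT macrophages. Of 37 tested cell cycle and mitosis genes 23 were higher, with a median of 1.42 against -0.10 over all tested genes. The count was 5 without either WT macrophage library, 29 without WT monocyte 3 and 35 without WT monocyte 4. Mki67, a protein of dividing cells, had 16.7 and 14.3 FPKM in WT macrophages, against 2.34 and 10.3 FPKM in WT monocytes, and was not called (limma adjusted p = 0.09). Cdk1, the kinase that starts mitosis, had 9.74 and 9.78 FPKM in WT macrophages, against 0.375 and 2.98 FPKM in WT monocytes (log2 difference 2.20 ± 0.49 SE, limma adjusted p = 0.0167), and was not called without either macrophage library (adjusted p = 0.0716 and 0.075). WT monocyte 3 was the lower monocyte library for both genes, and both macrophage libraries were above both monocyte libraries.

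Interferon-stimulated genes, which are switched on by type I interferon, were lower in WT macrophages for 18 of 19 tested (median -3.16). Without either monocyte library 10 of 11 tested were lower, since 8 members then did not reach 1 FPKM in 2 libraries. Ifitm3, a membrane protein that blocks virus entry, had 13.7 and 16.4 FPKM in WT macrophages, against 1956 and 1633 FPKM in WT monocytes (log2 difference -6.80 ± 0.15 SE, limma adjusted p = 3.92e-05). Oas2, a sensor of double-stranded RNA, had 0.542 and 0.443 FPKM in WT macrophages, against 59.6 and 45.9 FPKM in WT monocytes (log2 difference -5.16 ± 0.19 SE, limma adjusted p = 0.000108). Rsad2, the antiviral enzyme viperin, had 0.239 and 0.199 FPKM in WT macrophages, against 32.2 and 13.9 FPKM in WT monocytes (log2 difference -4.19 ± 0.39 SE, limma adjusted p = 0.000923). Isg15, a ubiquitin-like modifier, was at 10.7 and 6.85 FPKM in WT macrophages and 84.2 and 84.2 FPKM in WT monocytes (log2 difference -3.15 ± 0.21 SE, limma adjusted p = 0.000354). All 4 genes were lower in both macrophage libraries than in either monocyte library. Cxcl10, a chemokine induced by interferon, was the exception, higher by 0.81 ± 0.11 (SE), and was not called without either macrophage library (adjusted p = 0.0543 and 0.0558).

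Promoters of 3 of these genes are shown because the decrease ran across the list and its factors read a common word. Interferon-activated ISGF3 and IRF factors bind the interferon-stimulated response element, whose core, GAAA followed after 2 bases of any kind by GAAA, is in capitals on either strand with overlapping matches joined. GGAAGT is in capitals as well. Ifitm3 lies at chr7:141010695-141010994, minus strand, with 2 interferon words and 1 ETS word. Rsad2 lies at chr12:26456403-26456702, minus strand, with 1 interferon word, and Isg15 at chr4:156200769-156201068, minus strand, with 3 that overlap.
Ifitm3 promoter: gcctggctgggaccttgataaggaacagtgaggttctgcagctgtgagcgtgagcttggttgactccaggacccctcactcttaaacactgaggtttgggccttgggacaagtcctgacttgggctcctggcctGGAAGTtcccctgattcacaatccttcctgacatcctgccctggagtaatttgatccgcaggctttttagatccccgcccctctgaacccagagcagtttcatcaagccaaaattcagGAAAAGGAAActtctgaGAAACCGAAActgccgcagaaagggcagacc
Rsad2 promoter: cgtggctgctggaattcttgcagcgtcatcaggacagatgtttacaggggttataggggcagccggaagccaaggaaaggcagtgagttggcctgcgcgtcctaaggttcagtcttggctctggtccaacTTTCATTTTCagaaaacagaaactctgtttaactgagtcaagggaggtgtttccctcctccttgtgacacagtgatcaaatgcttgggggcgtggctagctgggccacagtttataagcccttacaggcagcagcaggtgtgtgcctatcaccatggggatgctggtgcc
Isg15 promoter: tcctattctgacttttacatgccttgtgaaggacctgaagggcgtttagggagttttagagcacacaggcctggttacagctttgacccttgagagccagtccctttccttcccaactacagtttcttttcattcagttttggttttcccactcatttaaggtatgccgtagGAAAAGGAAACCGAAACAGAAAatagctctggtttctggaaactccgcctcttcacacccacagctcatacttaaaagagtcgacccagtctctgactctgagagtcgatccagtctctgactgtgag
The word was chosen after the Ifitm3 promoter had been read, and Rsad2 and Isg15 after they were seen to hold it. Of 15 interferon-stimulated genes of the list with a promoter entry 9 held it, against 3.99% of all 27025 genes with an entry. The 9 include Ifitm3, which prompted the word, so the count is not independent of that choice. For GGAAGT the share was 4 of 15, against 26.5% of all genes. These are counts of letters in a fixed window and show no factor at any site.

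Complement genes were lower in 11 and higher in 3 of 15 tested (median -1.91), with 7 lower without WT macrophage 1. C1qa was among the genes that were lower. C5ar1, the receptor for the complement fragment C5a, was higher, at 77.1 and 88.7 FPKM in WT macrophages and 20.0 and 15.1 FPKM in WT monocytes (log2 difference 2.19 ± 0.18 SE, limma adjusted p = 0.000596). Of 21 tested immediate early genes, which respond within minutes to many stimuli, 16 were lower and 1, Egr2, was higher (median -0.70), with 12 lower after quantile normalisation and 8 without WT macrophage 1. Jun, a subunit of the AP-1 factor, had 1091 and 1086 FPKM in WT macrophages, against 1700.3 and 1764 FPKM in WT monocytes (log2 difference -0.67 ± 0.10 SE, limma adjusted p = 0.00419), and was not called without either macrophage library (adjusted p = 0.0511 and 0.0553). Jun was thus abundant in all 4 libraries.

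Uptake receptors changed in both directions. Of 20 tested scavenger and efferocytosis receptors 10 were higher and 6 lower (median 1.03). Mertk, a receptor for dying cells, had 98.1 and 90.9 FPKM in WT macrophages, against 3.49 and 4.23 FPKM in WT monocytes (log2 difference 4.30 ± 0.15 SE, limma adjusted p = 8.79e-05). Msr1, scavenger receptor A, had 5.38 and 6.11 FPKM in WT macrophages, against 49.3 and 27.9 FPKM in WT monocytes (log2 difference -2.50 ± 0.28 SE, limma adjusted p = 0.0017). Marco and Msr1, both class A scavenger receptors, thus differed in opposite directions. Olr1, a receptor for oxidised lipoprotein, was higher by 4.01 ± 0.55 (SE), and the difference of Stab1, stabilin 1, was -3.50 ± 0.19 (SE). Of 12 tested C-type lectin receptors 5 were higher and 3 lower (median 0.43). Clec4n, the fungal mannan receptor Dectin-2, was higher by 4.43 ± 0.31 (SE). Of 15 tested Fc and immunoglobulin-like receptors 7 were higher and 4 lower (median 0.19).

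Of 23 tested microbial sensors 6 were higher and 9 lower (median -0.19), with 3 higher without WT macrophage 1 and 5 lower without WT macrophage 2. Tlr4, the endotoxin receptor, had 27.8 and 28.1 FPKM in WT macrophages, against 2.86 and 3.93 FPKM in WT monocytes (log2 difference 2.73 ± 0.18 SE, limma adjusted p = 0.000354). Tlr2, the lipopeptide receptor, was higher by 1.94 ± 0.16 (SE). The difference of Tlr9, a sensor of bacterial DNA, was -2.50 ± 0.18 (SE), and that of Ly86, a partner of the Toll-like protein Cd180, was -3.06 ± 0.16 (SE). Toll-like receptors were thus found on both sides of the comparison.

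Chemokine and chemoattractant receptors were lower in 12 and higher in 5 of 21 tested (median -0.86), with 7 lower and 3 higher without either macrophage library. With either monocyte library left out, 16 of the 21 receptors reached 1 FPKM in at least 2 libraries. The rest depended on monocyte levels to enter the test, which favours a lower call. The differences of S1pr5 and S1pr1, receptors for the blood lipid sphingosine 1-phosphate, were -3.30 ± 0.22 and -3.08 ± 0.22 (SE). Fpr1, Fpr2, C5ar1, Xcr1 and Ccr1 were the receptors that were higher. Of 18 tested chemokine ligands 5 were higher and 7 lower (median -0.23), with 3 higher without either macrophage library and 8 without WT monocyte 3. Ccl5, which draws T cells and is also an NK cell product, had 46.4 and 48.4 FPKM in WT macrophages, against 335 and 946 FPKM in WT monocytes (log2 difference -3.54 ± 0.46 SE, limma adjusted p = 0.00274). Cxcl1, Ccl17 and Ccl22 were among the ligands that were higher. Without Cxcl13, listed at 0 in both WT macrophage libraries, the median of the ligands was -0.07.

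Of 27 tested interleukin and TNF family genes 8 were higher and 11 lower (median -0.45), with 2 higher and 7 lower without WT macrophage 1 and 3 higher and 6 lower without WT macrophage 2. The interleukin 1 family was divided. Il18, an inducer of interferon-gamma, had 308 and 323 FPKM in WT macrophages, against 30.8 and 20.8 FPKM in WT monocytes (log2 difference 3.59 ± 0.20 SE, limma adjusted p = 0.000216). Il1a, the alarm form of interleukin 1, was higher by 3.07 ± 0.29 (SE). Il1b, its secreted relative, had 40.6 and 45.3 FPKM in WT macrophages, against 263 and 116 FPKM in WT monocytes (limma adjusted p = 0.00893). The groups did not overlap for any of the 3 genes.

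Of 21 tested integrins and adhesion molecules 7 were higher and 10 lower (median -0.49). Itgae, the alpha chain of the E-cadherin receptor CD103, was counted among the dendritic cell markers below and not in this list. It had 20.2 and 14.9 FPKM in WT macrophages, against 1.62 and 0 FPKM in WT monocytes (log2 difference 3.50 ± 0.47 SE, limma adjusted p = 0.00302). Genes of MHC class II presentation were rarely called, with 1 of 12 tested higher and 2 lower (median -0.18), 4 higher and 1 lower under either other scaling, 2 higher and 4 lower without WT monocyte 3, and 5 higher and 2 lower without WT monocyte 4. H2-Aa, a class II alpha chain, had 883 and 732 FPKM in WT macrophages, against 617 and 736 FPKM in WT monocytes and overlapping groups (limma adjusted p = 0.219). Dendritic cell markers were mixed, with 4 of 11 tested higher and 4 lower (median -0.09, and 0.08 after quantile normalisation), and 2 lower without either macrophage library. The dendritic cell markers called higher were Ccl22, Itgae, Xcr1 and Fscn1, with Irf4, Flt3 and Ccr7 among the 4 called lower. Of 20 tested matrix proteases and inhibitors 3 were higher and 7 lower (median -0.37), against 17.5% and 26.6% of all tested genes. No direction is drawn for this list.

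**Figure D4:**
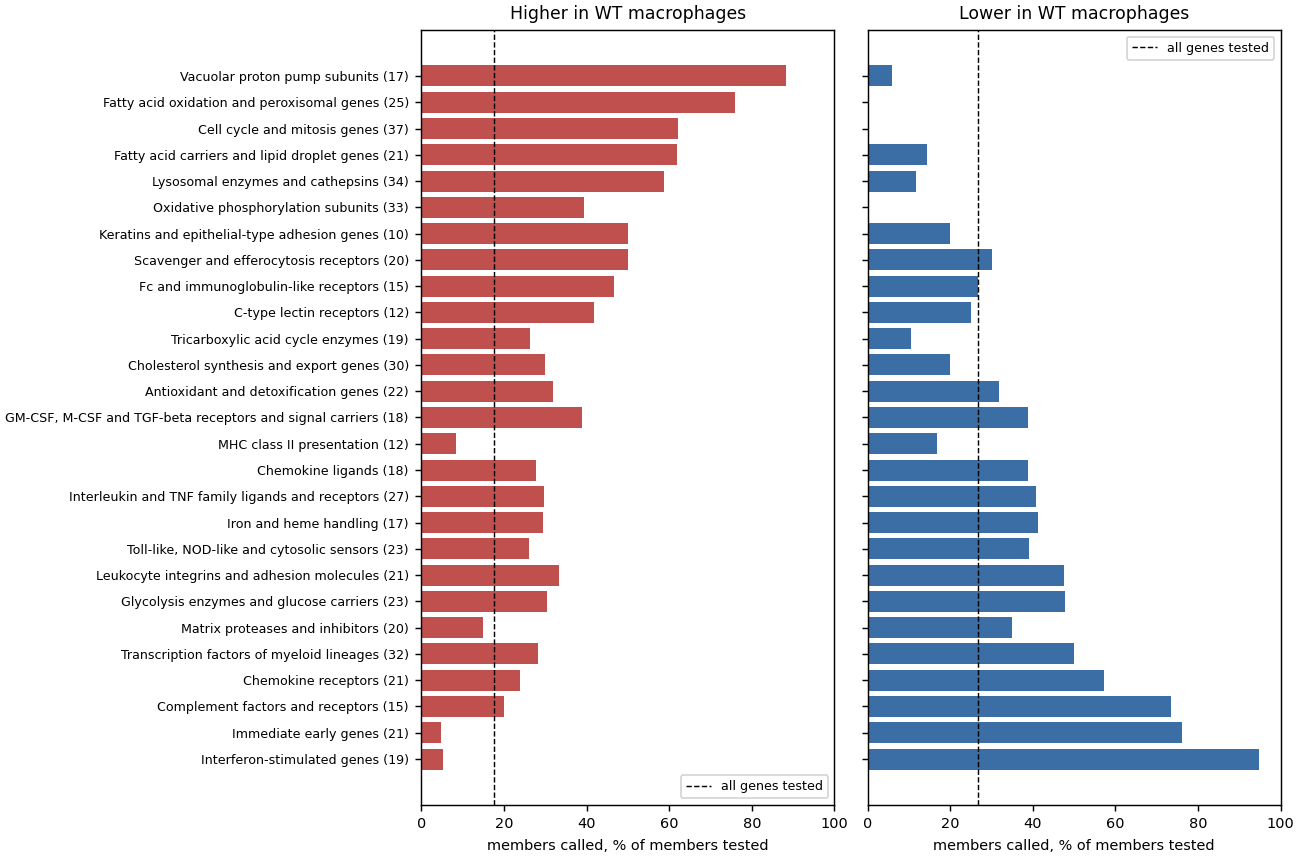
Percent of the tested members of each functional gene list, for lists with at least 10 tested members, that were called higher (left panel) or lower (right panel) in WT macrophages than in WT monocytes. The dashed lines mark all tested genes, at 17.5% higher and 26.6% lower. Vacuolar proton pump and fatty acid oxidation genes stand farthest right in the left panel, and interferon-stimulated genes in the right panel.

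In lungs with tumours the same contrast, with a different macrophage gate, was compared with the WT one. In a fit of 9 libraries and 10857 tested genes, 1585 genes (14.6%) were higher in tumour macrophages than in tumour monocytes and 2284 (21%) were lower. The tumour difference exceeded the WT difference for 909 genes (8.37%) and fell short of it for 755 genes (6.95%), 15.3% together by limma's interaction test. Of the 1829 genes higher in WT macrophages 802 were also called higher in tumour macrophages and 52 were called the opposite way. Of the 2786 genes lower in WT macrophages 1457 were also called lower in tumour macrophages and 127 the opposite way. The interaction test called 608 of the 1829 higher genes against the WT direction and 21 with it. Of the 2786 lower genes it called 687 against the WT direction and 12 with it. Calls against the WT direction were thus the more frequent, but these genes were chosen by their WT difference. The interaction test subtracts that same difference, measured in the same libraries, so its error pushes calls against the WT direction. How far this selection accounts for the splits was not tested. Without WT macrophage 1 and WT macrophage 2 in turn, the interaction test called 462 and 442 genes upward and 311 and 304 downward. Itgam averaged 127 ± 13 FPKM in tumour macrophages (SD, n = 3) and 185 ± 53.2 FPKM in tumour monocytes (SD, n = 2). The change of macrophage gate and the presence of tumour cannot be told apart.

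Most alveolar macrophage markers differed less between the cells in tumour lungs. Of the 17 markers 11 were higher and 1, Krt19, was lower in tumour macrophages than in tumour monocytes, and for 14 the difference was smaller than in WT lungs by the interaction test. Krt19 had 10.8, 8.17 and 10.7 FPKM in tumour macrophages and 16.5 and 15.8 FPKM in tumour monocytes, a difference lower than the WT one by 8.05 ± 0.23 (SE, limma adjusted p = 3.31e-07). Marco averaged 9.23 ± 3.70 FPKM in tumour macrophages (SD, n = 3) and 2.30 ± 2.75 FPKM in tumour monocytes (SD, n = 2). Fabp4, Fabp5 and Lpl were the 3 markers whose difference was not called as changed, at 3.31, 2.68 and 2.88 in tumour lungs and 2.55, 2.48 and 4.03 in WT lungs.

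Interferon-stimulated and monocyte-derived macrophage genes shifted toward tumour macrophages. For 14 of the 19 interferon-stimulated genes the tumour difference was higher than the WT difference, and the list's median was -0.88 in tumour lungs, with 5 members higher and 12 lower. Rsad2 had 87.1, 66.6 and 97.1 FPKM in tumour macrophages and 33.6 and 18.9 FPKM in tumour monocytes, a difference above the WT one by 5.86 ± 0.51 (SE, limma adjusted p = 0.000195). For 13 of the 18 monocyte-derived macrophage markers the tumour difference was higher as well. By comparison, the interaction test called 8.37% of all tested genes upward. C1qb had 1608, 1368 and 1985 FPKM in tumour macrophages and 562 and 265 FPKM in tumour monocytes, a difference above the WT one by 6.09 ± 1.12 (SE, limma adjusted p = 0.00782). In WT lungs Rsad2 and C1qb were lower in macrophages, C1qb not passing the test without WT macrophage 1 (adjusted p = 0.0544). Apoe, Ctsd and Psap are listed at 0 in all tumour macrophage libraries although they were abundant in the other cells, so no direction is drawn from them.

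Lysosomal genes were higher in both settings, with 28 of 34 higher and 3 lower in tumour macrophages, Ctsd and Psap being 2 of those 3. The interaction test called 13 of the 34 upward, 6 without WT macrophage 1 and 7 without WT macrophage 2, among them Ctsb, the gene for cathepsin B, with differences of 2.10 in tumour lungs and -0.30 in WT lungs, where it was not called. Of the 25 fatty acid oxidation genes 16 were higher in tumour macrophages, and for 11 the difference was smaller than in WT lungs, 6 without WT macrophage 1 and 5 without WT macrophage 2. For comparison, the interaction test called 8.37% of all tested genes upward and 6.95% downward. Of all 1829 genes higher in WT macrophages it called 608 against the WT direction, a count that the choice of these genes favours. Pdk4 differed by 0.63 in tumour lungs and 5.13 in WT lungs. Of the 12 NK cell markers 10 were lower in tumour macrophages (median -4.33). Gzma differed by -6.00 in tumour lungs and -5.66 in WT lungs. The part of NK cells in the tumour differences was not tested.

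**Figure D5:**
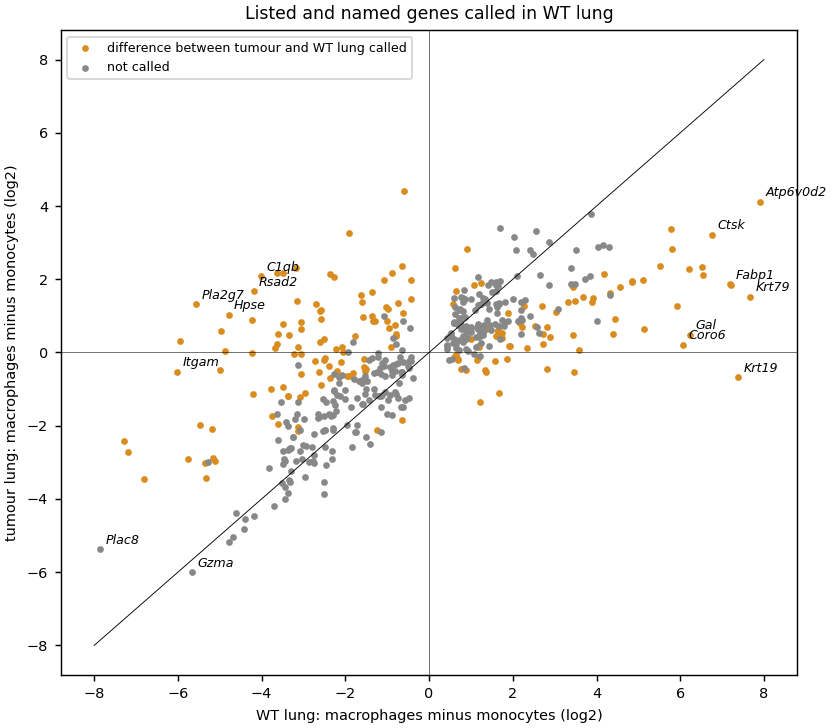
Difference between macrophages and monocytes on log2(FPKM + 1) in WT lungs (x axis) and tumour lungs (y axis) for 483 listed or named genes called in WT lungs, 180 of them called as different between the lungs by the interaction test. The 6 genes listed at 0 in a group are not plotted. Points on the diagonal have the same difference in both, and points beyond the horizontal zero line have the opposite sign in tumour lungs.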

How the data were processed

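RNA of sorted or total lung cells was sequenced with TruSeq libraries, per the labels' protocols. The tools named by the submitters' processing notes are CASAVA 1.8.2, TopHat2, Cufflinks and Cuffdiff, with the genome given as mm10 or GRCm38. The authors deposited 1 table of FPKM for 27 libraries, in which each column was matched to a library by its title. Strand use and the sharing of reads between near-identical genes are not given in the sources used here, so values of gene families such as the Ifitm, Oas, granzyme and keratin genes may hold reads of relatives. Reads and counts were not analysed here. Depth is therefore unknown and no counting interval is given. The spacing of values under 0.2 FPKM put the other 3 libraries at 1.04, 0.908 and 0.779 times the depth of WT macrophage 1, roughly.

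FPKM were transformed to log2(FPKM + 1), and genes at 1 FPKM or more in at least 2 libraries were tested in R 4.3.3 with limma 3.58.1, using its intensity trend, and p-values were adjusted by Benjamini-Hochberg over all tested genes at 0.05. The WT fit used 4 libraries. A gene that reached 1 FPKM in only 1 of the groups could hardly be called against that group, and any list may hold such genes. The tumour fit used 9 libraries and tested (tumour macrophages minus tumour monocytes) minus (WT macrophages minus WT monocytes). A 2 against 2 permutation cannot give a p under 0.333, so none was used. Collation and figures used Python 3.11.15, pandas 2.3.3 and matplotlib 3.10.9. The fits were tested on simulated data.

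The groups, the 44 gene lists (796 genes, 728 of them in the table and 690 tested) and the alternatives were chosen with earlier results of these data known. The genes named included the 15 with the largest called difference each way. These had a mean of 10 FPKM or more in the higher group, groups that did not overlap and no group listed at 0. Up to 3 called members per list and the sorting and given markers were added. The 5 largest interaction differences each way were taken among genes called in the WT comparison. The genes with the widest gaps between replicates and genes listed at 0 in 1 group were also named. Genes listed at 0 in any of the 4 groups were passed over for the interaction and are given as levels. Further list members were named after their values were seen. Promoter windows came from RefSeq (GRCm38.p6), and 22 of the 30 genes with the largest differences had an entry. Alternatives were other pseudocounts, filters, scalings, libraries in the fit, variance settings and leaving out each library. A few genes that met the naming rule are not reported here.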

Additional observations from a re-analysis of the deposited data

Results flagged for a closer look

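The difference between macrophages and monocytes was not the same in tumour and WT lungs for 909 genes, whose tumour difference was higher, and 755 genes, whose tumour difference was lower (limma interaction test, adjusted p under the threshold). The macrophage gate differed between the lungs, so gate and tumour cannot be told apart.

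Changes were ranked only among genes called in the WT comparison and not listed at 0 in a group. That choice favours changes against the WT direction. Among the 5 largest upward changes were those of Pla2g7 (6.88), C1qb (6.09), Rsad2 (5.86) and Hpse (5.82). These are on the log2 scale and are the tumour minus the WT difference. Pla2g7, a phospholipase that degrades platelet-activating factor, had 199.8, 176 and 276 FPKM in tumour macrophages and 112 and 64.1 FPKM in tumour monocytes. In WT lungs it had 0.618 and 2.72 FPKM in WT macrophages, against 114 and 116 FPKM in WT monocytes. Hpse, heparanase, had 34.5, 28.2 and 49.4 FPKM in tumour macrophages and 14.6 and 20.5 FPKM in tumour monocytes. In WT lungs its levels were 0.296 and 0.539 FPKM in WT macrophages and 45.4 and 31.9 FPKM in WT monocytes. For both genes WT macrophages were the lowest group.

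In the same ranking of genes called in the WT comparison, the 5 largest downward changes were those of Krt19 (-8.05), Krt79 (-6.15), Coro6 (-5.85), Gal (-5.75) and Fabp1 (-5.35). Krt79 had 3.86, 3.95 and 1.81 FPKM in tumour macrophages and 0.824 and 0.111 FPKM in tumour monocytes. Gal had 1.57, 0.960 and 1.33 FPKM in tumour macrophages and 0.630 and 0.607 FPKM in tumour monocytes. Coro6 had 1.22, 0.349 and 0.892 FPKM in tumour macrophages and 0.747 and 0.357 FPKM in tumour monocytes. Fabp1 had 5.50, 4.95 and 1.8 FPKM in tumour macrophages and 0.758 and 0 FPKM in tumour monocytes. These genes stood far higher in both WT macrophage libraries than in any of the 5 tumour macrophage and monocyte libraries.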

How the results depend on the processing

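No paired analysis was possible because the WT macrophage libraries are numbered 1 and 2 and the WT monocyte libraries 3 and 4, with no shared number. Leaving out 1 library gave 595 to 2557 genes higher and 1255 to 2848 lower in the WT comparison. Requiring a difference of at least 1 on the log2 scale left 1005 higher and 1647 lower. Without genes whose mean in WT neutrophils, epithelium or total lung exceeded both groups, 930 were lower. Other pseudocounts, filters and variance settings and a fit to all 27 or 13 WT libraries kept both counts within 1.5 times. In the interaction test, leaving out 1 library gave 442 to 993 genes higher and 304 to 840 lower, quantile normalisation 851 and 899, and upper-quartile scaling 744 and 1060, with the median of all genes at 0.02, -0.04 after quantile normalisation and -0.11 after upper-quartile scaling. Of 132 genes picked by the naming rule and called in the WT comparison 120 kept call and direction in every alternative that gave a value, 12 lost the call in at least 1, and 0 were reversed. The naming rule favours large called differences, so this share does not carry over to all called genes. Among picked genes not called, 7 changed sign. With 1 library left out, Ccl24 ranged from -3.58 (without WT macrophage 2) to 1.21, Glyr1 from -1.37 to 0.01, S100a8 from -4.87 (without WT monocyte 3) to 0.94, Sftpa1 from -1.81 to 1.42, Sftpb from -1.47 to 1.77, Sftpc from -1.66 to 1.29 and Sftpd from -1.78 to 1.71. For Glyr1 and the 4 surfactant genes the lowest value came without WT monocyte 4 and the highest without WT monocyte 3. Under quantile normalisation Sftpc gave 0.04 and Sftpd 0.11. Sftpd gave 0.13 under upper-quartile scaling and 0.04 with a pseudocount of 0.1. The cause was not tested. The SD over replicates was larger in monocytes, with a median of 0.0885 in WT macrophages and 0.189 in WT monocytes, so 2 libraries a group limit what small differences can be called.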

Other observations

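Several abundant genes differed widely between the WT monocyte libraries. Besides the neutrophil and surfactant genes, Scgb1a1, the secretory protein of club cells, had 44.8 and 391 FPKM in WT monocytes 3 and 4, and Ccl24, an eosinophil-attracting chemokine, had 3.04 and 51.7 FPKM in them. Higher in WT monocyte 3 was Il1b, with 263 and 116 FPKM. Of genes listed at 0 in a group, Trim29 had 69.5 and 69.2 FPKM in WT macrophages and is listed at 0 in WT monocytes. In the other direction 4 genes (Cxcl13, Fcnb, Il4 and Prg2) are listed at 0 in both WT macrophage libraries and averaged 5 FPKM or more in WT monocytes. Since abundant genes can be listed at 0 in cells known to express them, these zeros set no fold change.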
